A study of Homo sapiens with 6 samples.

Results

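Platinum drugs have to cross the plasma membrane before they can crosslink DNA, and the 10 genes described here encode the proteins best known for moving cisplatin or copper across it. LRRC8A, LRRC8B, LRRC8C, LRRC8D and LRRC8E encode the subunits of the volume-regulated anion channel, SLC31A1 and SLC31A2 a copper importer and its homologue, ATP7A and ATP7B the copper-exporting ATPases, and ATOX1 the chaperone that hands copper to them. They were chosen by name, and all 10 were found among the 17156 genes of the deposited gene table and kept by the filter on low counts. The cells were SiHa, a human papillomavirus-positive cervical squamous carcinoma line, and all of them had been in 20 µM cisplatin for 48 h. In 3 libraries VPS13C was knocked down (shVPS13C) and in 3 it was not (shcontrol). The sh prefix denotes a short hairpin RNA, and the labels give neither its sequence nor the number of hairpins or clones, nor whether replicates were separate cultures, so each p-value here speaks for the spread among 6 libraries and no more. Cells without the drug were not analysed here, and neither platinum uptake nor protein was measured. The series title ties VPS13C to cisplatin resistance, so the question asked is whether transcripts of uptake and efflux genes differed with the knockdown.

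The volume-regulated anion channel opens when a cell swells and lets chloride and small organic molecules out. LRRC8A is its obligatory subunit and assembles with at least one of the other LRRC8 proteins, which set what the channel carries. Channels that contain LRRC8D pass larger organic solutes, and loss of LRRC8A or LRRC8D lowers cisplatin uptake and the apoptotic response to it in other cell lines. SLC31A1 (CTR1) is the main copper importer and has also been described as a route for cisplatin, although how much platinum it carries is debated. ATP7A and ATP7B move copper from the cytosol into the secretory pathway or out of the cell and can sequester platinum, and ATOX1, which delivers copper to them, can bind platinum as well.

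LRRC8A was the only one of the 10 genes that passed the test, and it was higher in shVPS13C cells by 0.17 on the log2 scale, a fold of 1.12. No gene was lower past the threshold by edgeR, DESeq2 or limma-trend, and at an unadjusted p under 0.05 by edgeR 2 of the 10 were higher and 1 lower, against 18.9% of all genes tested in either direction. LRRC8D, the subunit tied to cisplatin passage, had a log2 fold change of -0.14 and missed the threshold, with every shVPS13C library below every shcontrol library. None of the copper transporters or the chaperone passed, and their fold changes lay between -0.06 and 0.06 on the log2 scale. Over all 12671 genes tested, 4.50% passed in either direction, 2.27% as higher and 2.23% as lower, and nothing particular to the list is read from 1 gene in 10. The median log2 fold change was 0.02 over the 10 genes and -0.001 over all genes tested.

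The promoters of LRRC8A and LRRC8D are shown because these subunits lay apart between the groups in opposite directions, and that of SLC31A1 because it shares a motif with the LRRC8A promoter. Each is the 250 bases before the first annotated start in the RefSeq table on GRCh38.p14, written 5′ to 3′ on the gene's strand. Capitals mark TGACGTCA, the cyclic AMP response element, and GGGCGG or its reverse complement CCGCCC, the core of a GC box. The positions are chr9:128881883-128882132 (plus strand) for LRRC8A, chr1:89820782-89821031 (plus strand) for LRRC8D and chr9:113221294-113221543 (plus strand) for SLC31A1.
LRRC8A: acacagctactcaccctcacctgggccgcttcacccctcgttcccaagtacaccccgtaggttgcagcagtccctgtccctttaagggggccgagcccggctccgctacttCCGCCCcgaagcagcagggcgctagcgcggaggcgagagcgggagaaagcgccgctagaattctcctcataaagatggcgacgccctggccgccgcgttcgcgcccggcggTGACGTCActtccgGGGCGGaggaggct
LRRC8D: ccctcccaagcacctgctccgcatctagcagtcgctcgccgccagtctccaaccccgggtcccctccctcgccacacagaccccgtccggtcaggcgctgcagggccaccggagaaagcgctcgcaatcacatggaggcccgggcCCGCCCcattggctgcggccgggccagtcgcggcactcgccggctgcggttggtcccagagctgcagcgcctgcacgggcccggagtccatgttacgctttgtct
SLC31A1: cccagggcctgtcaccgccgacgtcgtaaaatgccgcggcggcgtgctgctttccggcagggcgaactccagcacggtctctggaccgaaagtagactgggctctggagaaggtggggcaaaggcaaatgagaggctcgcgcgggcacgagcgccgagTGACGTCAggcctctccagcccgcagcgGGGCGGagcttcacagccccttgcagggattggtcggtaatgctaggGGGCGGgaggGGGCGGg

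The element TGACGTCA began 28 bases before the start in LRRC8A and 92 bases before it in SLC31A1. It stood in 2 of the 13 promoters listed for 9 of the genes, while SLC31A2 had no entry. Of all 35116 listed promoters, 1.65% hold it in the same window, where both strands read alike because the element is its own reverse complement. GGGCGG, searched on both strands, stood in 10 of the 13 promoters, which belong to 8 genes, against 42.6% of all promoters. LRRC8D and ATP7B each count with 2 of these promoters, and those of ATP7B overlap, so the promoters are not all separate. These motifs were chosen after the sequences were seen, and a match describes the letters, not a site in use. The core of the metal response element was searched on both strands as TGCACNC, found in 1 promoter (LRRC8D) against 9.87% of all, and as TGCGCNC, found in 2 (ATOX1 and ATP7B) against 16.8% of all.

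LRRC8A had 42.93, 44.91 and 43.11 FPKM (read counts scaled to transcript length and library size, as the authors gave them) in shVPS13C libraries 1, 2 and 3, against 40.00, 38.45 and 38.14 FPKM in shcontrol libraries 1, 2 and 3. Every shVPS13C library lay above every shcontrol library, with the smallest gap between shVPS13C replicate 1 and shcontrol replicate 1. The estimated counts behind these values were 2814, 2871 and 2796 in shVPS13C cells, against 2645, 2453 and 2409 in shcontrol cells. As CPM (edgeR's counts relative to the TMM-scaled library size), LRRC8A averaged 177 ± 5.09 in shVPS13C cells and 157 ± 4.99 in shcontrol cells (SD, n = 3 each). The log2 fold change was 0.17 (95% confidence interval 0.09 to 0.25, SE 0.041, edgeR quasi-likelihood test, adjusted p = 0.0168). The call was lost without shVPS13C replicate 2 (log2 0.15, edgeR adjusted p = 0.0963), shVPS13C replicate 3 (0.18, adjusted p = 0.0589) or shcontrol replicate 2 (0.16, adjusted p = 0.0606). DESeq2, which passed 3.10% of the genes it tested, also called LRRC8A (0.17, adjusted p = 0.0121). With limma-trend on log2(FPKM + 1), which passed 1.16% of genes, the call was lost (0.16, adjusted p = 0.0765). In bulk libraries, more cells with the transcript and more transcript per cell cannot be told apart. LRRC8A (Entrez 56262) lies on chromosome 9, from 128882133 to 128918039 on the plus strand of GRCh38.p14, and shares 0% of its 50-base stretches with another gene of GENCODE 29.

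LRRC8D had 29.87, 29.53 and 32.32 FPKM in shVPS13C libraries 1, 2 and 3, against 34.71, 32.98 and 33.46 FPKM in shcontrol libraries. Its groups did not overlap, and shVPS13C replicate 3 came closest to the shcontrol libraries. It averaged 30.6 ± 1.52 FPKM in shVPS13C cells and 33.7 ± 0.893 FPKM in shcontrol cells (SD, n = 3 each). The log2 fold change was -0.14 (95% confidence interval -0.23 to -0.04, SE 0.046), with an unadjusted p of 0.00616 and an edgeR adjusted p = 0.0929. LRRC8D (Entrez 55144) lies on chromosome 1, from 89821032 to 89936611 on the plus strand. A further protein-coding gene on the same strand, AC093423.3, shares 5.87% of its 50-base stretches.

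LRRC8E, an accessory subunit gene, had 8.54, 8.60 and 8.60 FPKM in shVPS13C libraries 1, 2 and 3, against 7.84, 7.56 and 7.64 FPKM in shcontrol libraries. The shVPS13C libraries were all above the shcontrol libraries and lay within 0.06 FPKM of each other. It averaged 28.6 ± 0.120 CPM in shVPS13C cells and 25.7 ± 0.572 CPM in shcontrol cells (SD, n = 3 each), and its log2 fold change was 0.16 (95% confidence interval 0.02 to 0.29, SE 0.064). The adjusted p was 0.177 by edgeR, short of the threshold although the fold was close to that of LRRC8A. At 399 to 465 counts per library it has fewer counts than LRRC8A. An antisense gene, AC010336.1, covers 74.3% of LRRC8E's exon bases on the opposite strand. Whether the counting used strand is not given in the sources used here, so reads of the 2 genes cannot be told apart.

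LRRC8B and LRRC8C, the accessory subunit genes that neighbour LRRC8D on chromosome 1, overlapped between the groups. LRRC8B had 5.67, 5.46 and 4.79 FPKM in shVPS13C libraries, against 5.33, 5.17 and 5.03 FPKM in shcontrol libraries (log2 0.03, 95% confidence interval -0.11 to 0.17, edgeR adjusted p = 0.855). LRRC8C had 8.25, 7.35 and 7.72 FPKM in shVPS13C libraries, against 8.18, 8.11 and 7.43 FPKM in shcontrol libraries (log2 -0.02, interval -0.14 to 0.09, edgeR adjusted p = 0.857). The highest and the lowest LRRC8B values were both in shVPS13C libraries. The 3 genes lie in a row on the plus strand, LRRC8B and LRRC8C 17962 bases apart and LRRC8C and LRRC8D 101498 bases apart, and of the 3 only LRRC8D lay apart between the groups. In all, 3 of the 10 genes had groups that did not overlap, 2 higher and 1 lower, against 23.1% of all genes tested (11.8% higher and 11.3% lower).

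**Figure D1:**
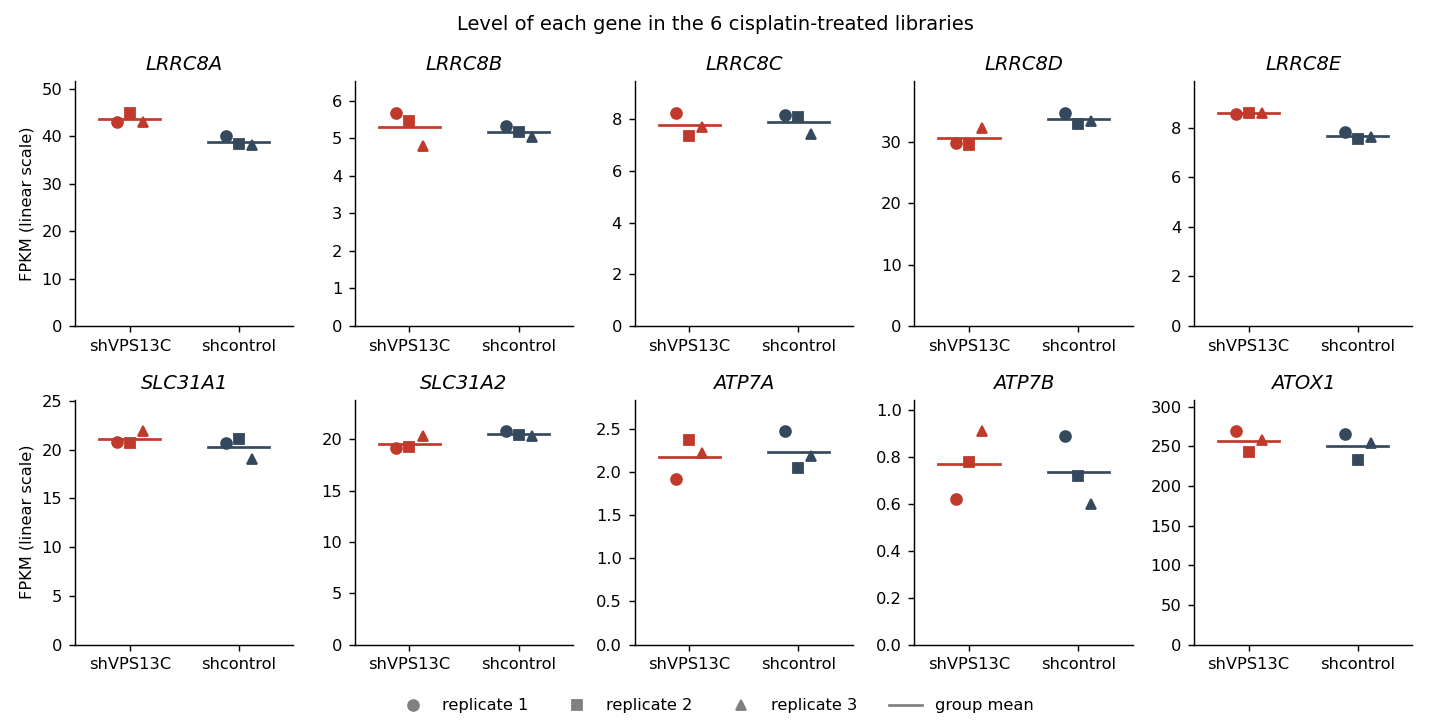
FPKM of each of the 10 genes on a linear axis from 0, with 1 point for each of the 3 shVPS13C libraries at the left and the 3 shcontrol libraries at the right of each panel, the marker shape giving the replicate and the bar the group mean. LRRC8A and LRRC8E lie higher and LRRC8D lower in shVPS13C cells with no overlap, and the other 7 genes overlap.

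The mix of subunit transcripts was set out as the share of each gene in the summed FPKM of the 5 LRRC8 genes, a measure per transcript length that says nothing of the protein complexes. LRRC8A made up 45.1%, 46.9% and 44.7% in shVPS13C libraries 1, 2 and 3, against 41.6%, 41.7% and 41.6% in shcontrol libraries. LRRC8D made up 31.4%, 30.8% and 33.5% in shVPS13C libraries, against 36.1%, 35.7% and 36.5% in shcontrol libraries. The groups were apart for both, and the shcontrol libraries lay closer together than the shVPS13C libraries did. Both shares are parts of the same sum, so a rise of LRRC8A alone would lower that of LRRC8D. They are not separate results. As group means, LRRC8A stood at 45.5 ± 1.17% in shVPS13C cells and 41.6 ± 0.0399% in shcontrol cells (SD, n = 3 each), a difference of 3.89 percentage points. LRRC8D stood at 31.9 ± 1.41% in shVPS13C cells and 36.1 ± 0.373% in shcontrol cells (SD, n = 3 each), a difference of -4.24 points. LRRC8E was at 8.95 ± 0.0351% in shVPS13C cells and 8.23 ± 0.0904% in shcontrol cells (SD, n = 3 each), again without overlap. The shares of LRRC8B and LRRC8C overlapped.

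The ratio of LRRC8D to LRRC8A FPKM was 0.696, 0.658 and 0.750 in shVPS13C libraries 1, 2 and 3, against 0.868, 0.858 and 0.877 in shcontrol libraries. Its mean was 0.701 ± 0.0463 in shVPS13C cells and 0.868 ± 0.00978 in shcontrol cells (SD, n = 3 each), a difference of -0.167. LRRC8D was lower and LRRC8A higher in every shVPS13C library than in every shcontrol library, so the ratio had to lie apart as well. It restates the values of those genes and adds no support to them. Shares and ratios over chosen genes were not tested. When counts were divided by the longest GENCODE transcript of each gene in place of the authors' lengths, the ratio was 0.600 in shVPS13C cells and 0.742 in shcontrol cells. The summed LRRC8 FPKM overlapped, at 95.9 ± 0.641 in shVPS13C cells and 93.3 ± 2.37 in shcontrol cells (SD, n = 3 each). The ratio of LRRC8E to LRRC8A overlapped too, at 0.197 ± 0.00446 in shVPS13C cells and 0.198 ± 0.00233 in shcontrol cells (SD, n = 3 each).

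**Figure D2:**
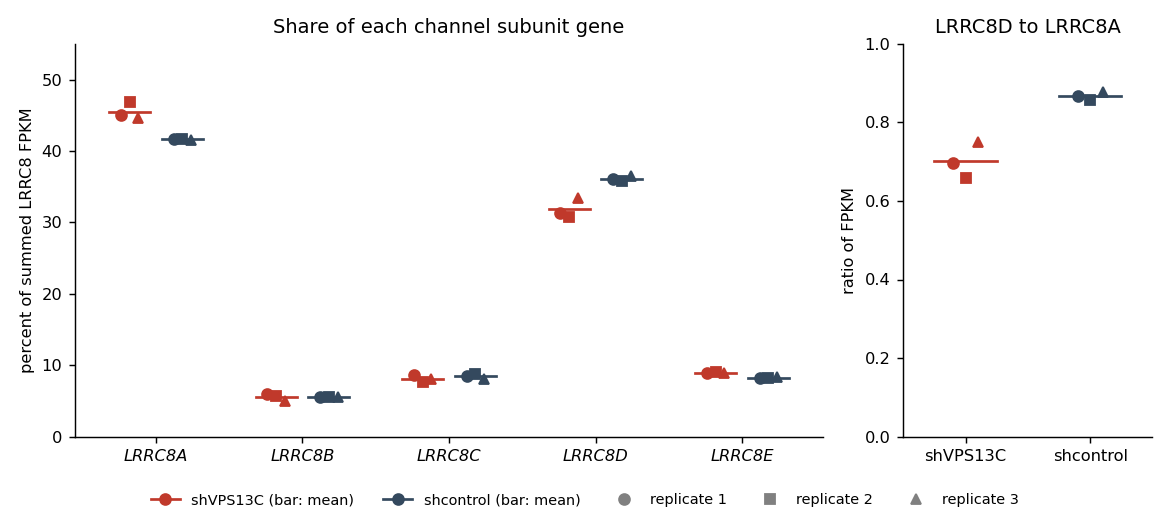
Left, percent of the summed LRRC8 FPKM taken by each subunit gene in each library, shVPS13C left of shcontrol, with bars at group means; right, the ratio of LRRC8D to LRRC8A FPKM. The 3 shVPS13C libraries have ratios of 0.658 to 0.750 and the 3 shcontrol libraries of 0.858 to 0.877, and the shares of LRRC8B and LRRC8C overlap between groups.

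SLC31A1, the copper importer gene, had 20.78, 20.73 and 21.88 FPKM in shVPS13C libraries 1, 2 and 3, against 20.71, 21.06 and 19.10 FPKM in shcontrol libraries. The groups overlapped, and shcontrol replicate 3 was the lowest of the 6. The log2 fold change was 0.06 (95% confidence interval -0.04 to 0.15, SE 0.046, edgeR adjusted p = 0.523). SLC31A2, a homologue found in endosomes and lysosomes, had 19.12, 19.26 and 20.36 FPKM in shVPS13C libraries, against 20.77, 20.39 and 20.29 FPKM in shcontrol libraries. Here only shVPS13C replicate 3 reached the shcontrol range, and the log2 fold change was -0.06 (interval -0.19 to 0.07, SE 0.062, edgeR adjusted p = 0.648). FKBP15 covers 63.1% of the SLC31A2 exon bases on the opposite strand, so SLC31A2 counts carry the same limit as those of LRRC8E. SLC31A1 and SLC31A2 were also the only genes of the 10 whose estimated gene counts had decimals. The 2 importer genes lie 57403 bases apart on chromosome 9, SLC31A2 from 113151007 to 113164140 and SLC31A1 from 113221544 to 113264492, both on the plus strand.

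The exporter genes stood far below the importers per length. ATP7A, the exporter whose loss causes Menkes disease, had 1.92, 2.37 and 2.22 FPKM in shVPS13C libraries 1, 2 and 3, against 2.47, 2.05 and 2.19 FPKM in shcontrol libraries. ATP7B, the exporter whose loss causes Wilson disease, had 0.62, 0.78 and 0.91 FPKM in shVPS13C libraries, against 0.89, 0.72 and 0.60 FPKM in shcontrol libraries. Both overlapped, and for ATP7B the lowest and highest values of each group were nearly the same. The log2 fold changes were -0.04 for ATP7A (95% confidence interval -0.22 to 0.14, SE 0.088, edgeR adjusted p = 0.865) and 0.06 for ATP7B (interval -0.28 to 0.40, SE 0.165, edgeR adjusted p = 0.893). ATP7B had 58 to 93 counts per library, and its interval contains both 0 and the log2 fold change of LRRC8A. The ratio of SLC31A1 to ATP7A FPKM averaged 9.81 ± 1.04 in shVPS13C cells and 9.13 ± 1.01 in shcontrol cells (SD, n = 3 each) and overlapped. ATP7A lies on chromosome X (77910693 to 78050395, plus strand) and ATP7B on chromosome 13 (51932669 to 52012132, minus strand).

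ATOX1, the copper chaperone gene, had 268.63, 243.32 and 258.27 FPKM in shVPS13C libraries 1, 2 and 3, against 264.84, 232.79 and 254.34 FPKM in shcontrol libraries. The ranges overlapped, and replicate 2 was the lowest in both groups. Its log2 fold change was 0.02 (95% confidence interval -0.09 to 0.13, SE 0.054, edgeR adjusted p = 0.899). ATOX1 lies on chromosome 5 from 151742822 to 151758631 on the minus strand. Its counts, 728 to 833 per library, were below those of SLC31A1, so its place at the top holds with the authors' transcript lengths and not in counts. The longest GENCODE transcript is 4341 bases for ATOX1 and 4619 bases for LRRC8A. Divided by those lengths, the ATOX1 counts would stand below those of LRRC8A.

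**Figure D3:**
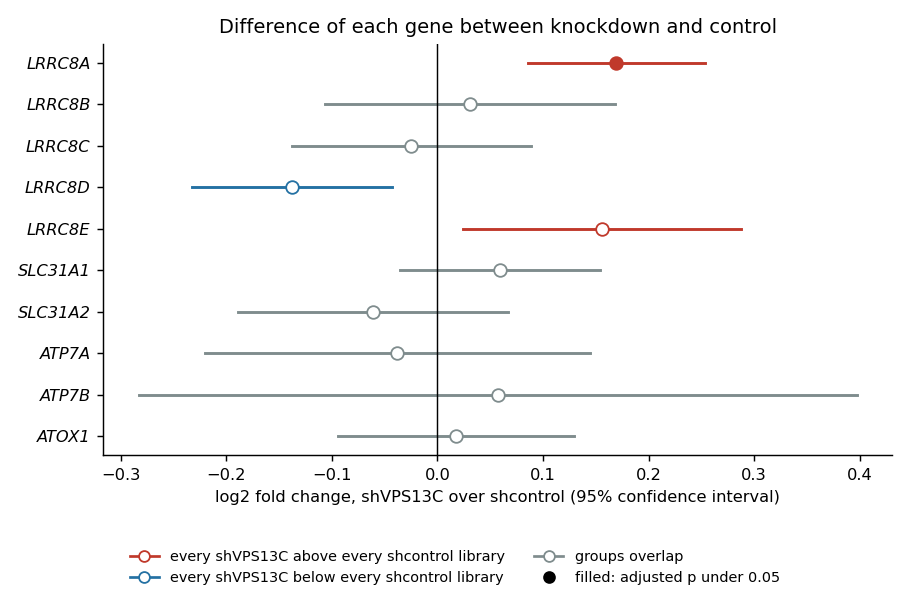
Log2 fold change of each gene, shVPS13C over shcontrol, with its 95% confidence interval from the edgeR fit; the filled point passed an adjusted p of 0.05, red and blue mark genes whose groups did not overlap. LRRC8A at 0.17 is the filled point, LRRC8E at 0.16 and LRRC8D at -0.14 have intervals clear of 0 but missed the threshold over all genes, and ATP7B has the widest interval.

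By the authors' FPKM, the order in shVPS13C cells was ATOX1, LRRC8A, LRRC8D, SLC31A1, SLC31A2, LRRC8E, LRRC8C, LRRC8B, ATP7A and ATP7B. No neighbours in that order overlapped over their 3 libraries. In shcontrol cells the order was the same except that SLC31A2 stood before SLC31A1 and LRRC8C before LRRC8E. These were the neighbours whose ranges overlapped there. Among the genes tested, the mean FPKM of ATOX1 stood above that of 97.3% of genes, of LRRC8A above 79.4%, of LRRC8D above 73.9% and of SLC31A1 above 62.8%. ATP7A stood above 17.0% and ATP7B above 7.80%.

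The transcript table lists 46 RefSeq transcripts of these genes, of which 42 had counts and 28 entered the transcript test. None was called by the edgeR quasi-likelihood test, as was true of all 41617 transcripts tested (0%), and 1 had an unadjusted p under 0.05, against 4.93% of all transcripts. DESeq2 called 627 transcripts over the table and none of these genes' transcripts. The transcript with the unadjusted p under 0.05 was XM_017001602.1 of LRRC8D, a predicted RefSeq model, with 209.59, 305.24 and 284.25 estimated counts in shVPS13C libraries 1, 2 and 3, against 415.86, 408.96 and 344.41 in shcontrol libraries. It was below every shcontrol library in each shVPS13C library, with a log2 fold change of -0.55 (95% confidence interval -0.98 to -0.11, SE 0.175, edgeR adjusted p = 0.821). It held 18.4 ± 3.80% of LRRC8D counts in shVPS13C cells and 24.5 ± 2.05% in shcontrol cells (SD, n = 3 each). The leading LRRC8D model, XM_017001601.2, had 1051.64, 962.03 and 1097.95 counts in shVPS13C libraries, against 1153.50, 1025.65 and 1113.42 in shcontrol libraries, which overlapped.

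For LRRC8A the leading transcript, NM_019594.4, had 1821.19, 2213.50 and 2132.49 estimated counts in shVPS13C libraries 1, 2 and 3, against 1952.92, 1615.44 and 1736.57 in shcontrol libraries. These overlapped, although the gene's summed counts did not. It held 72.7 ± 6.92% of the gene's counts in shVPS13C cells and 70.6 ± 4.19% in shcontrol cells (SD, n = 3 each). Reads of 50 bases from 1 end rarely tell transcripts of a gene apart, so these counts are estimates, and their common biological coefficient of variation was 0.698 against 0.035 for genes. SLC31A1 and ATOX1 have 1 listed transcript each, so gene and transcript cannot differ there.

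Of 28 tested genes of copper handling outside the 10, 1 was lower and none higher by edgeR, against 4.50% of all genes in either direction. At an unadjusted p under 0.05, 2 were higher and 3 lower, against 18.9% of all genes. The called gene was STEAP4, a metalloreductase of iron and copper, with 16.49, 16.05 and 16.40 FPKM in shVPS13C libraries 1, 2 and 3, against 18.38, 19.84 and 19.84 FPKM in shcontrol libraries. The groups lay apart, and its log2 fold change was -0.24 (95% confidence interval -0.33 to -0.16, SE 0.041, edgeR adjusted p = 8.41e-04). With limma-trend on log2(FPKM + 1) its adjusted p was 0.0531. The other 27 did not pass, among them the superoxide dismutase chaperone gene CCS and the mitochondrial copper carriers, and the list's median was 0.01 on the log2 scale.

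The 9 genes of copper-dependent cell death, which encode lipoylated mitochondrial enzymes and the factors that lipoylate them, had no call by edgeR, DESeq2 or limma-trend, and 1 of the 9 had an unadjusted p under 0.05 by edgeR, where over all genes tested 4.50% passed and 18.9% had such a p. The smallest p was that of DLD, the dihydrolipoamide dehydrogenase gene, at 44.5 ± 2.05 FPKM in shVPS13C cells and 41.5 ± 1.91 FPKM in shcontrol cells (SD, n = 3 each). Its groups overlapped (log2 0.10, edgeR adjusted p = 0.206), and the median of the list was 0.04.

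Of 29 tested genes of cell volume control outside the 10, 1 was higher and none lower by edgeR, against 4.50% of all genes in either direction and 2.27% as higher. At an unadjusted p under 0.05, 2 were higher and 2 lower, against 18.9% of all genes. AQP3, a water and glycerol channel, had 46.68, 41.16 and 49.14 FPKM in shVPS13C libraries 1, 2 and 3, against 38.09, 35.76 and 40.76 FPKM in shcontrol libraries. The groups did not overlap, with shVPS13C replicate 2 just above shcontrol replicate 3. The log2 fold change was 0.26 (95% confidence interval 0.14 to 0.38, SE 0.059, edgeR adjusted p = 0.0132), and this call was lost without shVPS13C replicate 1, shVPS13C replicate 3 or shcontrol replicate 2, at edgeR adjusted p of 0.0816, 0.107 and 0.0773, and with limma-trend on log2(FPKM + 1), at 0.108. The list holds cation-chloride cotransporters and the WNK kinases that regulate them, and its median was 0.02.

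Among the other transporters that have been tied to platinum drugs, mostly organic cation transporters and multidrug resistance proteins of the ABCC family, 11 of 16 were tested and none passed by edgeR, DESeq2 or limma-trend, with 0 at an unadjusted p under 0.05 by edgeR, where over all genes tested 4.50% passed and 18.9% had such a p. The median log2 fold change of the tested genes was 0.01.

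**Figure D4:**
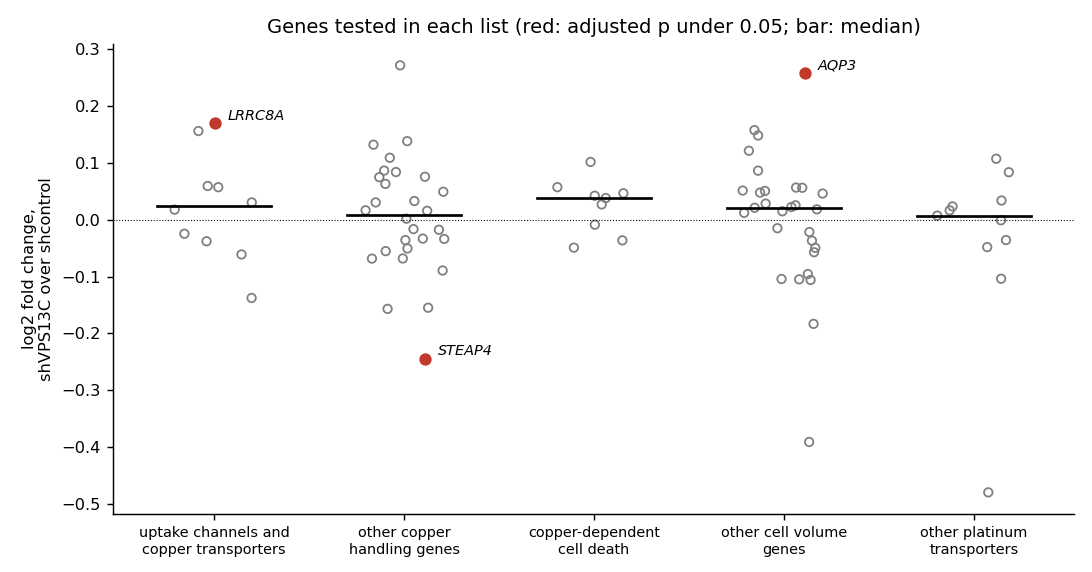
Log2 fold change, shVPS13C over shcontrol, of each tested gene in the 10 genes described and in 4 further lists, with bars at list medians and red points at an adjusted p under 0.05. LRRC8A, STEAP4 and AQP3 are the red points, and the medians lie between 0.01 and 0.04.

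The genes whose levels followed LRRC8A most closely over the 6 libraries, by Pearson correlation of log2 CPM over the 10698 genes that averaged 5 CPM or more, were TNS3 (r = 0.995), CDH24 (0.993), RIMS4 (0.991), TIMP2 (0.989) and GCAT (0.987). Of the genes compared, 89 had an r of at least 0.95. The 6 libraries fall into groups that differ in LRRC8A, so a gene that is higher in shVPS13C cells tends to correlate with it. How closely also depends on the order within each group, and the values are a description. TNS3 encodes a focal adhesion tensin, CDH24 a cadherin, RIMS4 a synaptic scaffold, TIMP2 a metalloproteinase inhibitor and GCAT a mitochondrial glycine acetyltransferase. Their log2 fold changes were 0.27, 0.22, 0.29, 0.18 and 0.12, and GCAT did not pass (edgeR adjusted p = 0.316).

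The knockdown itself showed in every library. VPS13C, a lipid transfer protein gene, had 1.81, 1.93 and 2.11 FPKM in shVPS13C libraries, against 3.82, 4.24 and 3.80 FPKM in shcontrol libraries (log2 -1.02, edgeR adjusted p = 4.77e-10). GSTP1, the glutathione S-transferase gene in the series title, did not pass, with a log2 fold change of 0.06. Library totals ran from 15643965 to 16333424 estimated counts, and the groups lay apart on the first principal component. Of 10 markers of a cervical squamous line, 9 passed the filter on low counts, led by KRT8, KRT18, KRT17 and CDKN2A, while KRT5 had at most 1 count in any library; the basal markers KRT5 and TP63 averaged 0.00 and 0.27 FPKM in shVPS13C cells and 0.02 and 0.277 FPKM in shcontrol cells. The summed level of these markers was 3820 to 3965 FPKM in shVPS13C libraries and 3995 to 4177 FPKM in shcontrol libraries, carried mostly by KRT8, KRT18 and KRT17, and single markers were called both ways, LAMB3 lower (log2 -0.29, edgeR adjusted p = 1.83e-04) and CDH1 higher (0.27, edgeR adjusted p = 0.00359). The 7 fibroblast markers summed to 3.67 to 4.24 FPKM in shVPS13C libraries and 2.91 to 2.93 FPKM in shcontrol libraries, mostly COL1A1, which was higher (log2 0.43, edgeR adjusted p = 0.00171), with PDGFRA at 0.0267 FPKM in shVPS13C cells and 0 FPKM in shcontrol cells. The 5 leukocyte markers summed to 39.4 to 41.7 FPKM in shVPS13C libraries and 38.4 to 41.1 FPKM in shcontrol libraries, nearly all of it CD68, a lysosomal protein gene, at 40.2 FPKM in shVPS13C cells and 39.7 FPKM in shcontrol cells, while PTPRC was at 0 in all libraries. The 4 endothelial markers summed to 0.53 to 0.99 FPKM in shVPS13C libraries and 0.78 to 0.84 FPKM in shcontrol libraries, mostly PECAM1, with TEK at 0 in all libraries. The part of these marker differences in the LRRC8A result was not tested.

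**Figure D5:**
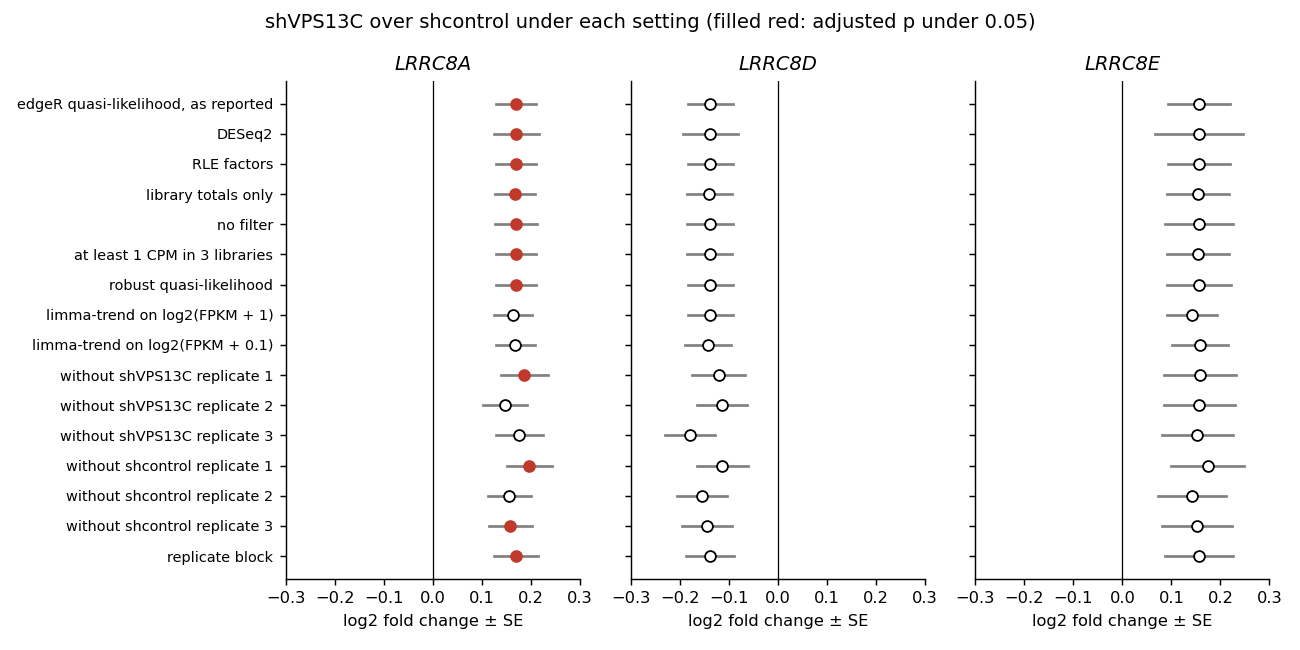
Log2 fold change, shVPS13C over shcontrol, with its SE for LRRC8A, LRRC8D and LRRC8E under the edgeR fit as reported and 15 alternatives, filled where the adjusted p is under 0.05. LRRC8A stays between 0.15 and 0.20 and is filled in 10 of the 15, LRRC8D stays between -0.18 and -0.11 and LRRC8E between 0.14 and 0.17, and neither is filled in any.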

How the data were processed

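Libraries of total RNA were sequenced from 1 end for 50 bases (DNBSEQ), per the labels' protocols. The build was hg38, per the submitters' processing notes, while aligner, counter, annotation and strand setting are not given in the sources consulted. The deposited read counts per gene and per RefSeq transcript are estimated counts made by the authors, with a decimal part in 14.7% to 15.6% of values per library, and the deposited FPKM are the authors' values per transcript length. Another 30 per-sample columns and 16 columns of means were not used.

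Counts were rounded, filtered with filterByExpr (12671 of 17156 genes kept, 681 genes being at 0 throughout) and TMM-scaled (factors 0.996 to 1.01). shVPS13C was compared with shcontrol by the edgeR 4.0.16 quasi-likelihood test in R 4.3.3, two-sided, without covariates, on 4 residual degrees of freedom; p-values were adjusted by Benjamini-Hochberg over all genes tested, at a threshold of 0.05. The common biological coefficient of variation was 0.035. Transcripts were tested in the same way (41617 of 79523 kept). The test scripts were run on simulated data, with a required outcome set for the gene test only. The simulated transcripts varied less than the real ones, whose common biological coefficient of variation was 0.698. That run therefore does not show what the transcript test could detect here. Intervals are at 95%, and CPM are per TMM-scaled library. Alternatives were DESeq2 1.42.0, limma 3.58.1 on log2(FPKM + 1) and log2(FPKM + 0.1), other scalings and filters, a replicate block, and leaving out each library.

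The 10 genes, the lists and the tests were chosen with earlier results of these data known. Named were the 10 genes, VPS13C, GSTP1, each called list member or else the one with the smallest p (1 such gene is not reported here), and the 5 genes most like LRRC8A; any other gene was named with its values in view. Coordinates and promoters come from RefSeq tables on GRCh38.p14, which gave positions for all 10 genes and promoters for 9; shared 50-base stretches, exon overlaps and alternative lengths come from GENCODE 29 on GRCh38. Chi-square per degree of freedom between replicates was 1.96 to 3.55, more than counting error gives.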

Additional observations from a re-analysis of the deposited data

How the results depend on the processing

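Over 15 alternatives, LRRC8A kept its direction at 0.15 to 0.20 on the log2 scale, with adjusted p of 0.00561 to 0.0963, 10 of them under 0.05. The count of higher genes among the 10 was 0 with limma-trend on log2(FPKM + 1) and on log2(FPKM + 0.1) and 0 to 1 when a library was left out; no gene among them was lower past the threshold in any alternative. LRRC8D ran from -0.18 to -0.11 (adjusted p 0.0685 to 0.303) and LRRC8E from 0.14 to 0.17 (0.174 to 0.461). STEAP4 passed in 14 of 15 alternatives and AQP3 in 10 of 15.

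Genes near no difference changed sign when a library was left out, and none of these values passed. Over these leave-outs LRRC8B ran from -0.020 (without shVPS13C replicate 1) to 0.099, LRRC8C from -0.069 to 0.014 (positive without shVPS13C replicate 2, and 0.0038 without shcontrol replicate 1), and ATP7A from -0.11 to 0.048 (positive without shcontrol replicate 1, and 0.043 without shVPS13C replicate 1). ATP7B ran from -0.083 to 0.24 (negative without replicate 3 of either group, -0.083 for shVPS13C and -0.079 for shcontrol) and ATOX1 from -0.029 (without shcontrol replicate 2) to 0.054. The difference in the percent of LRRC8A counts on NM_019594.4 ran from -0.27 (without shcontrol replicate 2) to 6.09 points and was -0.098 without shVPS13C replicate 2.

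Over all genes, 162 were higher and 160 lower with DESeq2, 63 and 84 with limma-trend on log2(FPKM + 1), 64 and 87 on log2(FPKM + 0.1), and 101 to 238 and 103 to 225 when a library was left out, against 288 and 282; the cause was not tested. DESeq2 gave no adjusted p for ATP7B. Over all transcripts, DESeq2 called 627 and leaving out a library 0 to 1. Leaving out a library kept the sign of each share and ratio: 3.23 to 4.33 points for LRRC8A, -5.04 to -3.70 for LRRC8D, 0.69 to 0.77 for LRRC8E, -0.191 to -0.145 for LRRC8D to LRRC8A and 0.175 to 1.26 for SLC31A1 to ATP7A. For the LRRC8 values the groups did not overlap, so no leave-out could have changed their sign.

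The labels do not say that a replicate number marks a shared culture day, so the numbers were not taken as pairs. Libraries with the same number did not deviate together (correlations of 0.0403, -0.00699 and -0.15). With a replicate block LRRC8A was 0.17 (adjusted p = 0.0289), and 250 genes were higher and 233 lower over the table.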
